A study of Homo sapiens with 54 samples.

Results

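The genes described here are 8 that mark megakaryocytes and the platelets they shed: the chemokines PPBP and PF4, the integrin subunit ITGA2B, the subunits GP9, GP1BA and GP1BB of the von Willebrand factor receptor, and the surface receptors TREML1 and CLEC1B. They were taken as a fixed list by symbol and not by a cut on their values, though earlier results of these data were known. All 8 were found among the 58735 genes of the bulk RNA table and among the 36601 genes of each of 3 single-cell matrices. The study grew macrophages from H1, a human embryonic stem cell line, in a porous 3D scaffold and compared them with cells grown in 2D. The bulk table covers 32 libraries in 11 groups, every one of them labelled as H1 macrophages.

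The groups were 2D at day 12 (4 libraries), 3D at day 12 (4), 3D at days 16, 19 and 23 (3 each), 3D at days 16, 19 and 23 with FBS (fetal bovine serum) in the title (3 each), and 3D groups titled SP6A, SP14 and Ecoli (2 each). SP6A and SP14 stand in the time point field and are used as names only, and the E. coli libraries carry no day. No other agent is labelled for any group, and every library shares the H1 line. The labels do not say that replicates were separate cultures, so p-values measure the spread between these libraries, which may be technical. The single-cell libraries are of 3D cells at days 7, 9 and 12, with 1 library per day. The chromatin libraries (8 ATAC and 11 ChIP) were not analysed here.

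Megakaryocytes form from blood progenitors under the transcription factors GATA1, FLI1, RUNX1 and NFE2, load granules with chemokines and growth factors, and shed platelets. Platelets find damaged vessels through the GPIb-IX complex, which binds von Willebrand factor, and clump through the integrin αIIbβ3, which binds fibrinogen. Embryonic and pluripotent stem cell cultures directed toward macrophages commonly pass through a progenitor that can also give erythroid and megakaryocytic cells.

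The promoters of members are shown because the genes moved together between 2D and 3D. Of the 8 members, 6 have an entry of 300 bases in the RefSeq promoter table of GRCh38.p14 (250 bases before and 50 after the start). Motifs were searched on both strands. They were the GATA motif, spelled as AGATAA or as TGATAA, and the ETS motif of factors such as FLI1, spelled as AGGAAG or as CGGAAG. The others were the RUNX motif, spelled as TGTGGT or as TGCGGT, and the TATA box, spelled as TATAAA. Capitals mark a match on either strand. PPBP lies on chr4:73988141-73988440 (minus strand) and is shown for its large fall. ITGA2B lies on chr17:44389600-44389899 (minus strand) and is shown because it was among the members least often listed at 0 in later 3D groups. GP9 lies on chr3:129060529-129060828 (plus strand) and is shown because its transcripts were also found in granulocyte-like cells. TREML1 lies on chr6:41154300-41154599 (minus strand) and is shown because it changed least.
PPBP: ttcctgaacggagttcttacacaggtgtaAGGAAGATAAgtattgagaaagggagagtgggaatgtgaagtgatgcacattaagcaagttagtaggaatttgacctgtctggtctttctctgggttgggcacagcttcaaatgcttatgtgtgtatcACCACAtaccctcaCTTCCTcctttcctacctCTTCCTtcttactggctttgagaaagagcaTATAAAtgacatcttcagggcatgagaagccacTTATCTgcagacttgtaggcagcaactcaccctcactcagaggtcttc
ITGA2B: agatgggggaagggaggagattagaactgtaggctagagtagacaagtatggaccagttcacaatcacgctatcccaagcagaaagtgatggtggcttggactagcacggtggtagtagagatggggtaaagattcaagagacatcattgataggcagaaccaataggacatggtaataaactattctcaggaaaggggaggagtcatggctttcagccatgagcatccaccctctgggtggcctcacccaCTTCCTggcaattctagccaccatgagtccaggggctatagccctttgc
GP9: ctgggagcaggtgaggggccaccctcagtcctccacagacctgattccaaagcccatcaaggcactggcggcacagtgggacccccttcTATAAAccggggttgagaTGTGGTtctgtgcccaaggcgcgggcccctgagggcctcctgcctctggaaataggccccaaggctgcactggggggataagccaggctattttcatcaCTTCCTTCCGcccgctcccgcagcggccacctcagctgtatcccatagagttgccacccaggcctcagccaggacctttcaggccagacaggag
TREML1: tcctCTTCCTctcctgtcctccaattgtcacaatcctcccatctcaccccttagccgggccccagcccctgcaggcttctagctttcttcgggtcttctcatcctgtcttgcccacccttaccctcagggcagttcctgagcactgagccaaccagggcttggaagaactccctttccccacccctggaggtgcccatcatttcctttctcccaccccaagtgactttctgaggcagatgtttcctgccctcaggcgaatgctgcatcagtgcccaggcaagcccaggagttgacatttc

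An ETS match stood in 6 of 6 member promoters, and 46.9% of all promoters in the table hold one. RUNX matches stood in 4 of 6 (19.6% of all promoters), GATA matches in 2 of 6 (16.3%) and TATA matches in 2 of 6 (11.5%). PPBP held 2 GATA, 3 ETS, 1 RUNX and 1 TATA match, the last at positions -31 to -26 from the start, and its first ETS and GATA matches share bases. GP9 held 2 overlapping ETS matches, 1 RUNX and 1 TATA match. ITGA2B and TREML1 each held 1 ETS match and no other. A match is a description of letters in this window, not a site in use.

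At day 12, PPBP, PF4 and GP9 had more than 100 TPM in every 2D library and less than 20 TPM in every 3D library. Summed over the 8 members, the level was 952 ± 228 TPM (the authors' length-scaled transcript unit) in 2D (SD, n = 4) and 28.9 ± 12.4 TPM in 3D day 12 (SD, n = 4). All 8 fell at a limma adjusted p under 0.05 in a fit of log2(TPM + 1) over the 8 libraries, where 24.7% of the 13131 genes tested fell. In 7 of 8 every 3D library lay below every 2D library, against 25.1% of all genes tested. The exception was TREML1. The median change of the members was -3.97 on the log2(TPM + 1) scale against -0.21 over all genes tested. Of the 8, 4 (ITGA2B, GP1BA, GP1BB and CLEC1B) averaged under 1 TPM in 3D day 12 and passed the filter through 2D alone, so the counts and the median describe and do not test the list. Of all genes called in that fit 65.5% fell, and with median-ratio scaling of the libraries 51.5%, as the median over all genes moved from -0.21 to -0.04. In bulk samples, fewer cells of a type and less RNA per cell cannot be told apart.

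PPBP, the precursor of the neutrophil-attracting chemokine CXCL7 and of other platelet basic proteins (ENSG00000163736, chr4:73986439-73988190), reached 388, 358, 298 and 525 TPM in the 4 libraries of 2D. In 3D day 12 it stood at 1.16, 6.37, 2.03 and 2.56 TPM. The lowest 2D library was far above the highest 3D library. The means differed 129.6-fold, and PPBP fell by 6.73 ± 0.37 (SE) on the log2(TPM + 1) scale (limma adjusted p = 2.67e-05, lower in 4 of 4 libraries). By size of fall it ranked 3 of 13131 genes.

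PF4, the chemokine CXCL4 that binds heparin-like chains (ENSG00000163737, chr4:73980811-73982124), lies beside PPBP on chromosome 4. It had 273, 201, 240 and 416 TPM in 2D against 4.22, 14.4, 0.45 and 0.84 TPM in 3D day 12, again with no overlap. The fall was 6.16 ± 0.69 (SE) on the same scale (limma adjusted p = 0.000498), which ranked 4 of 13131. PF4V1, a near copy of PF4, was listed at 0, 2.25, 6.46 and 0 TPM in 2D, and reads that fit both could be split between them, so the PF4 values carry that uncertainty.

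ITGA2B encodes the αIIb chain of the platelet fibrinogen receptor (ENSG00000005961, chr17:44372181-44389649). Its levels were 42.7, 33.3, 18.6 and 47.5 TPM in 2D and 0.08, 1.14, 0.84 and 0.53 TPM in 3D day 12. No library overlapped, and ITGA2B fell by 4.44 ± 0.33 (SE; limma adjusted p = 9.82e-05). ITGB3, the β3 chain it pairs with, fell by 1.75 from a mean of 3.22 to 0.27 TPM (limma adjusted p = 0.00296).

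GP9 encodes the GPIX subunit, which holds the GPIb-IX complex at the surface (ENSG00000169704, chr3:129054845-129062406). It was at 146, 146, 127 and 214 TPM in 2D. In 3D day 12 it was at 9.99, 16.9, 17.8 and 8.6 TPM, the highest level of any member there. GP9 fell by 3.51 ± 0.28 (SE; limma adjusted p = 0.000128) with no overlap.

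GP1BA encodes the α chain of GPIb, the part that binds von Willebrand factor (ENSG00000185245, chr17:4932277-4935023). It was the least abundant member in 2D at 4.15, 4.93, 3.77 and 1.32 TPM, and was listed at 0 in all 4 libraries of 3D day 12. The fitted change of -2.10 (limma adjusted p = 0.00104) is set by the pseudocount of 1, and no fold is given against a group at 0.

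GP1BB encodes the β chain of GPIb (ENSG00000203618, chr22:19723539-19724771). It was uneven in 2D, at 106, 85.2, 9.55 and 23.6 TPM, an 11.1-fold range and a coefficient of variation of 83.3%, where the other 7 members ranged from 24.2% to 44.0%. The 3D day 12 libraries were at 0, 0.11, 0 and 1.48 TPM. GP1BB fell by 4.93 ± 0.72 (SE; limma adjusted p = 0.00138) with no overlap. GP1BB directly follows SEPTIN5 on the chromosome and transcripts can run from one into the other, so the level of GP1BB is uncertain. SEPTIN5 (SEPT5 in the table) was listed at 0, 0.98, 0 and 0 TPM in the same 2D libraries.

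CLEC1B encodes CLEC-2, the platelet receptor for podoplanin (ENSG00000165682, chr12:9993075-10001899). It was at 7.34, 13.98, 8.46 and 18.1 TPM in 2D and at 1.29, 0, 0 and 0.05 TPM in 3D day 12, without overlap. CLEC1B fell by 3.30 ± 0.36 (SE; limma adjusted p = 0.000461).

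TREML1 encodes TLT-1, a receptor stored in platelet α-granules (ENSG00000161911, chr6:41149260-41155403). It stood apart from the other members: 7.6, 11.8, 17.4 and 12.0 TPM in 2D against 5.31, 8.09, 5.39 and 6.07 TPM in 3D day 12. One 3D library lay above the lowest 2D library. TREML1 fell by 0.83 ± 0.25 (SE) and passed narrowly (limma adjusted p = 0.0302), ranking 3325 of 13131 by size of fall. The call was lost when any of 6 of the 8 libraries was left out (limma adjusted p = 0.0591 to 0.0763), and with median-ratio scaling of the libraries (limma adjusted p = 0.0709).

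**Figure D1:**
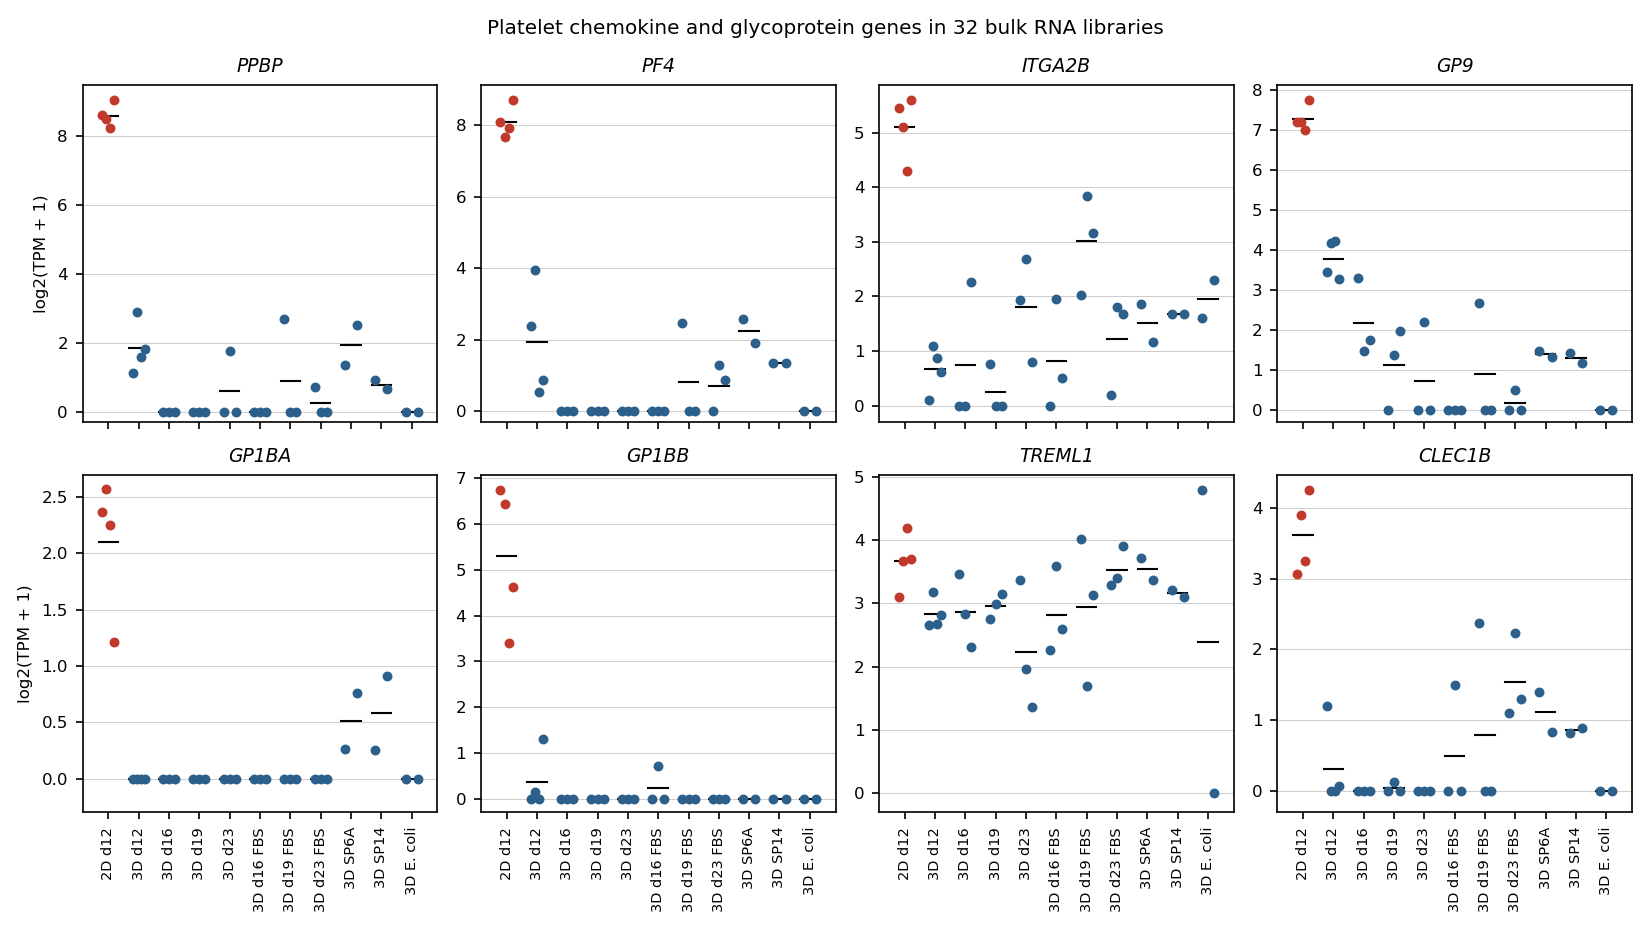
The plot of levels by library has 1 panel per member, with log2(TPM + 1) on the y axis and the 11 groups on the x axis. Each point is 1 of 32 bulk libraries (red for 2D, blue for 3D) and each short line is the mean of a group on that scale; for 7 members the 2D libraries lie above every 3D library, and for TREML1 15 of 28 3D libraries lie at or above the 2D minimum of 7.6 TPM.

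Other genes of the platelet pathway fell less evenly than the members. Of 21 tested platelet receptors and adaptors, 4 rose and 10 fell (median -0.51 against -0.21 over all genes). FCER1G, the signalling chain of the collagen receptor that myeloid cells also use, rose from 1162 ± 95.4 to 3558 ± 305 TPM (SD, n = 4 each; limma adjusted p = 0.000218). The scavenger receptor CD36 rose by 1.92 (limma adjusted p = 0.000627) and the tetraspanin CD9 by 0.83 (limma adjusted p = 0.0329). ITGB1, the integrin β1 chain, fell by 1.36 (limma adjusted p = 0.0116), FYB1, an adaptor of integrin activation, fell by 0.64 (limma adjusted p = 0.0217), and FERMT3, the kindlin that activates integrins, was at 225 and 179 TPM and was not called.

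Of 22 tested granule and secretion genes, 3 rose and 10 fell (median -0.72). STXBP2, a syntaxin-binding protein of granule release, fell by 2.15 (limma adjusted p = 0.000696) and VAMP8, a granule fusion protein, by 0.56 (limma adjusted p = 0.0166). SRGN, the proteoglycan that packs PF4 into granules, rose by 1.03 (limma adjusted p = 0.00202). TIMP1 and THBS1, both abundant granule cargo, were not called, at 1129 against 1248 TPM and 181 against 197 TPM.

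Of 21 tested genes of the cytoskeleton and of eicosanoid synthesis, 1 rose and 12 fell (median -0.99). CMTM5 fell by 5.14 (limma adjusted p = 0.000188) and FLNA, the filamin that anchors GPIb to actin, by 2.10 (limma adjusted p = 0.00115). TPM4, a tropomyosin, was the one that rose, by 1.03 (limma adjusted p = 0.00117). Of 18 tested transcription factors, 1 rose and 11 fell (median -1.03). NFE2, which drives platelet release, fell by 3.63 (limma adjusted p = 0.000167), GATA1 by 3.69 (limma adjusted p = 0.000508), LYL1 by 2.87 (limma adjusted p = 0.000145), RUNX1 by 1.82 (limma adjusted p = 0.00148) and TAL1 by 1.15 (limma adjusted p = 0.0146). Of 6 tested receptors and binding partners of the members, 1 rose and 2 fell (median 0.18): SRGN rose, and ITGB2 and ITGAM, the chains of the leukocyte integrin that binds GPIbα, fell by 0.71 and 1.12 (limma adjusted p = 0.00613 and 0.00628).

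Markers of other cell types also differed between 2D and 3D day 12, where 24.7% of all genes fell. Of 13 tested megakaryocyte markers that exclude the members, 10 fell and 1, PLEK, rose (median -1.70). The summed level of that list was 170 to 243 TPM in 2D and 68.5 to 78.7 TPM in 3D. Granulocyte markers summed to 1797 to 3167 TPM in 2D and 307 to 436 TPM in 3D, where ELANE, LTF, LCN2 and CEACAM8 were listed at 0, and 7 of 8 tested fell. Mast, basophil or eosinophil markers summed to 371 to 706 TPM and 0.23 to 412 TPM (TPSB2, CPA3 and MS4A2 at 0 in 3D), with 3 of 5 tested falling. Erythroid markers summed to 3432 to 4411 TPM and 31.7 to 1737 TPM, with 3 of 10 tested falling, a share near that of all genes. Endothelial markers summed to 242 to 279 TPM and 70.2 to 129 TPM, with 3 of 4 tested falling and 1 rising (ERG, EMCN, ROBO4 and SOX17 at 0 in both). Stroma or mesenchyme markers summed to 11.6 to 24.2 TPM and 10.0 to 84.2 TPM, with 3 of 7 tested rising and 1 falling (PDGFRA, DCN, LUM, TWIST1 and PRRX1 at 0 in 2D, TWIST1 in 3D). Macrophage markers, the labelled cell type, were high in both, at 3531 to 3848 TPM in 2D and 4583 to 6782 TPM in 3D, and 6 of 12 tested rose and 0 fell. The part of these lists in the members' change was not tested.

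**Figure D2:**
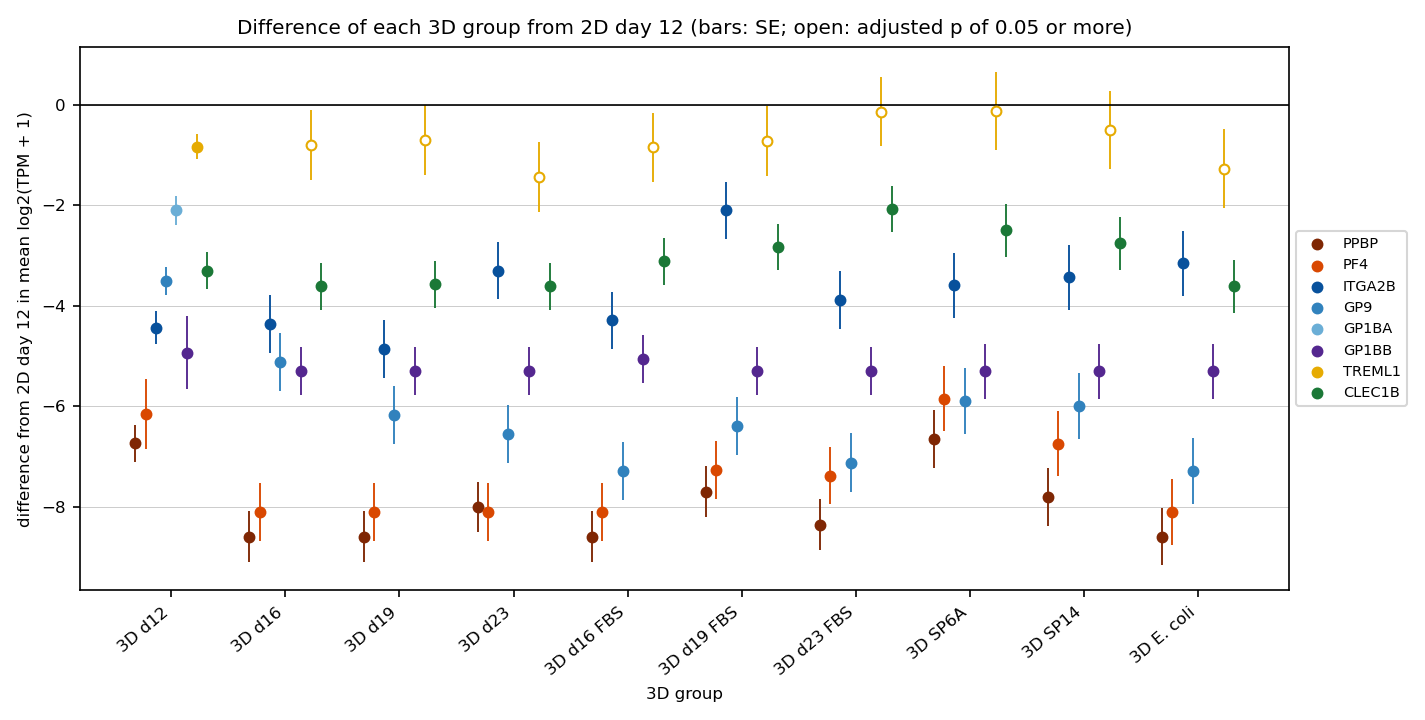
The plot of changes from 2D gives the difference in mean log2(TPM + 1) from 2D day 12 (y axis) for each of 10 3D groups (x axis), with 1 colour per member, bars of 1 standard error and open circles at a limma adjusted p of 0.05 or more; GP1BA is drawn where it was tested, for 3D day 12. Against the 9 other groups TREML1 lies between -1.44 and -0.13, and the other members lie between -8.59 and -2.07 in every group.

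The same 4 libraries of 2D were then set against each of the 9 other 3D groups in a fit of all 32 libraries (13578 genes), so these 9 comparisons share their controls and differ from 2D in day as well as in culture form. In each of the 9, 6 of 7 tested members fell, and GP1BA was under the filter. GP1BB and CLEC1B averaged 0.08 and 0.63 TPM over the 28 3D libraries and passed the filter through 2D alone. The counts of members in this paragraph thus describe and do not test the list. The share of all tested genes that fell was 16.9% at day 16, 18% at day 19 and 18.9% at day 23. Of genes called at day 23, 71.3% fell, and 60.3% with median-ratio scaling. With FBS it was 20.9%, 21% and 19.6% at the same days, and it was 20.5% in SP6A, 22.8% in SP14 and 45.1% in E. coli. In each of the 9, 7 of 8 members lay wholly below 2D, where the share of all tested genes was 23.4% at day 16, 25.1% at day 19 and 28.1% at day 23. It was 24.6%, 24.3% and 25.7% at these days with FBS, 31.4% in SP6A, 33.3% in SP14 and 42.7% in E. coli.

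Across the 9 groups, the change of PPBP from 2D was -8.59 to -6.65 on the log2(TPM + 1) scale, and that of PF4 -8.09 to -5.84. Both were listed at 0 in every library of days 16 and 19 without FBS, of day 16 with FBS and of E. coli, where the fitted change depends on the pseudocount. GP9 changed by -7.28 to -5.11, GP1BB by -5.30 to -5.06, ITGA2B by -4.86 to -2.10 (the smallest in day 19 with FBS, limma adjusted p = 0.0055) and CLEC1B by -3.62 to -2.07, the smallest in day 23 with FBS (limma adjusted p = 0.000985). TREML1 was not called in any of the 9 (log2 change -1.44 to -0.13, limma adjusted p = 0.133 to 0.925).

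In the 24 3D libraries outside day 12, the members differed in how often they were listed at 0. GP1BB was listed at 0 in 23 of 24, GP1BA in 20, PPBP and PF4 in 17 each, CLEC1B in 14, GP9 in 12, ITGA2B in 5 and TREML1 in 1. ITGA2B and TREML1, neither among the most abundant members in 2D, were thus the members least often at 0.

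Against 3D day 12, in a fit of the 28 3D libraries (13384 genes), 5 members averaged 1 TPM or more and were tested. PPBP and PF4 fell at day 16, by 1.86 (limma adjusted p = 0.0185) and 1.94 (limma adjusted p = 0.0297), 2 of 5 where 6.25% of all genes fell. All 3 libraries of day 16 and all 3 of day 19 were at 0 for both. PPBP and PF4 averaged 1.011 and 1.345 TPM over the 28 libraries, and 3.03 and 4.99 TPM in 3D day 12. In the 24 libraries outside day 12 the median of each was 0. Both thus passed the filter through 3D day 12, so the counts of members describe and do not test the list. At day 19, PPBP (limma adjusted p = 0.0237, and 0.0527 with a replicate block), PF4 (limma adjusted p = 0.0382) and GP9 fell, 3 of 5 against 5.39% of all genes. At day 23, PF4 (limma adjusted p = 0.0212) and GP9 fell, 2 of 5 against 15.1%. Of genes called, 37.7% fell at day 16 and 45.8% at day 19, and with median-ratio scaling 65.2% and 62.4%.

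GP9 stood at 8.84, 1.76 and 2.38 TPM at day 16, 0, 1.59 and 2.93 TPM at day 19 and 0, 3.59 and 0 TPM at day 23. Days 19 and 23 lie wholly below the 3D day 12 minimum of 8.6 TPM, and one day 16 library does not. GP9 fell by 2.66 at day 19 (limma adjusted p = 0.00513) and by 3.05 at day 23 (limma adjusted p = 0.000811). Without any filter on low values, 1 member was called at each of the 3 days. Leaving out 1 library at a time gave 0 to 1 calls at day 16, 0 to 2 at day 19 and 1 to 2 at day 23.

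ITGA2B with and without FBS was compared at 3 days. Without FBS it was at 0, 0 and 3.78 TPM at day 16, 0.7, 0 and 0 TPM at day 19, and 2.83, 5.43 and 0.75 TPM at day 23. With FBS it was at 0, 2.88 and 0.42 TPM at day 16, 3.07, 13.3 and 7.95 TPM at day 19, and 0.14, 2.49 and 2.19 TPM at day 23. The groups overlap at days 16 and 23, and at day 19 every serum library lies above every library without serum. The change with FBS differed between days in limma's F test of the interaction (adjusted p = 0.0281; 0.288 to 0.802 for the other 4 tested members), while the mean change over the 3 days was not called (0.75, limma adjusted p = 0.12). The interaction missed 0.05 at a pseudocount of 0.1 (adjusted p = 0.0892), with no filter (adjusted p = 0.0662), and without any of 6 of the 18 libraries (day 19 replicates 2 and 3, day 23 replicate 2, day 19 FBS replicates 2 and 3, day 23 FBS replicate 1), up to an adjusted p of 0.0859.

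GP9 was the 1 tested member called for FBS on average, falling by 0.99 (limma adjusted p = 0.0475), 1 of 5 where 15.7% of all genes fell. With no filter it was not called (limma adjusted p = 0.113), and CLEC1B rose by 0.93 (limma adjusted p = 0.0365). In the day 19 FBS group 4 members were found in 1 library alone: replicate 1 had 5.39 TPM of PPBP, 4.56 of PF4, 5.39 of GP9 and 4.16 of CLEC1B, and replicates 2 and 3 were at 0 for all of these. CLEC1B was at 1.14, 3.7 and 1.46 TPM in day 23 with FBS, all above the day 23 libraries without it, which were at 0.

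SP6A and SP14 kept traces of most members. PPBP was at 1.55 and 4.74 TPM in SP6A and at 0.88 and 0.58 TPM in SP14, PF4 at 4.98 and 2.79 TPM and at 1.57 and 1.54 TPM. GP1BA was found in both (0.2 and 0.69 TPM, 0.19 and 0.88 TPM) although it was listed at 0 in 3D day 12. The megakaryocyte marker list summed to 371 to 402 TPM in SP14, above 2D, yet 7 of its markers (GP6, RAB27B, SELP, MMRN1, CMTM5, TMEM40 and LY6G6F) were at 0 there. The E. coli libraries held ITGA2B at 2.04 and 3.95 TPM and TREML1 at 26.7 and 0 TPM, with the other 6 at 0. These 2 libraries agreed less with each other (r = 0.657) than replicates of the other groups (0.891 to 0.968) and reached 1 TPM in fewer genes, 8028.5 on average against 11893 to 13140.

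Across the 32 libraries, each member's log2(TPM + 1) was compared with the mean of the other 7. PPBP (r = 0.976) and PF4 (r = 0.967) followed it most closely, then GP1BB (0.910), GP1BA (0.898), CLEC1B (0.858), GP9 (0.856) and ITGA2B (0.738), and TREML1 least (0.325). The libraries share 1 large step between 2D and 3D, and r describes mainly that step. Of 14853 genes, those most like the mean of the 8 members were DMTN, SYT2, LTBP1, SELP, JPH2, CMTM5, ENHO, GRAP2, GNAZ and MPIG6B (r = 0.942 to 0.966). SELP, P-selectin of platelet granules, was at 4.53 ± 2.13 TPM in 2D and 0.31 ± 0.25 TPM in 3D day 12 (SD, n = 4 each).

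In single cells of the 3D culture, a minority of cells carried most of the members' counts, and by day 12 this was a small set. After filters, 6551, 11292 and 7592 cells were kept at days 7, 9 and 12, with median depths of 24179, 13032 and 16617 UMIs (unique molecular identifiers) per cell. With 1 library per day no test between days is possible, and the intervals below cover counting error only. Pairs of libraries shared 17 to 24 cell barcodes.

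The members differed in when they were found. At day 7, ITGA2B was already at 143 CPM (counts scaled to a fixed library total; 95% Poisson interval 141 to 145) and GP1BB at 71.2, while PPBP was at 0.98 (0.83 to 1.14), TREML1 at 0.81 and CLEC1B at 0.37. At day 9, PF4 had reached 214 CPM, PPBP 156 and GP1BB 160, with ITGA2B at 184. At day 12, PPBP was at 269 (267 to 272) and PF4 at 153 CPM, and ITGA2B was down to 39.5 CPM. CLEC1B was at 0.37, 8.01 and 16.8 CPM on the 3 days and TREML1 at 0.81, 2.68 and 5.56 CPM, each higher on each later day. GP9 went from 7.08 to 33.5 to 26.9 CPM and GP1BA from 14.4 to 18.4 to 8.46 CPM. CPM is not scaled by gene length, so levels are compared here within a gene across days.

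The members were found in a smaller share of cells at day 12 than at day 9. The day 9 shares include the unnamed cluster 7 (1127 cells of that day), whose members stood near the library average. They are thus shares of detection and not of cells expressing the genes. PPBP had a UMI in 1.37% of cells at day 7, 21.2% at day 9 and 12.6% at day 12, and in 0.191%, 9.08% and 4.89% after each cell was thinned to 3000 UMIs. Endoderm-like cells, which should lack it, had a PPBP UMI in 0 of 491 cells at day 7 and in 7.40% of 338 cells at day 9 (2.27% thinned; median 9926 UMIs). The whole day 7 library held 167 PPBP UMIs, so that 0 says little about stray counts. The same 491 cells held 160 ITGA2B and 90 GP1BB UMIs, and 0 of TREML1 and CLEC1B. At least 4 of the 8 members were found in 7.999%, 18.01% and 4.04% of cells unthinned and in 0.351%, 4.94% and 2.74% thinned. Of the unthinned cells with at least 4, those in megakaryocyte-like clusters numbered 434 of 524, 1032 of 2034 and 210 of 307. All 8 were found together in 0, 51 and 108 cells (0, 5 and 39 thinned). The 0 of 6551 cells at day 7 allows a share with all 8 detected of up to 0.0458%, a limit on detection and not on cells expressing the genes, since CLEC1B had 63 and TREML1 139 UMIs in that whole library. The 1% of cells richest in the members held 17.6% of all member UMIs at day 7, 31.0% at day 9 and 70.4% at day 12. At day 12, 75.0% of cells with a CLEC1B UMI also had one of PPBP, against 10.4% of cells without.

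**Figure D3:**
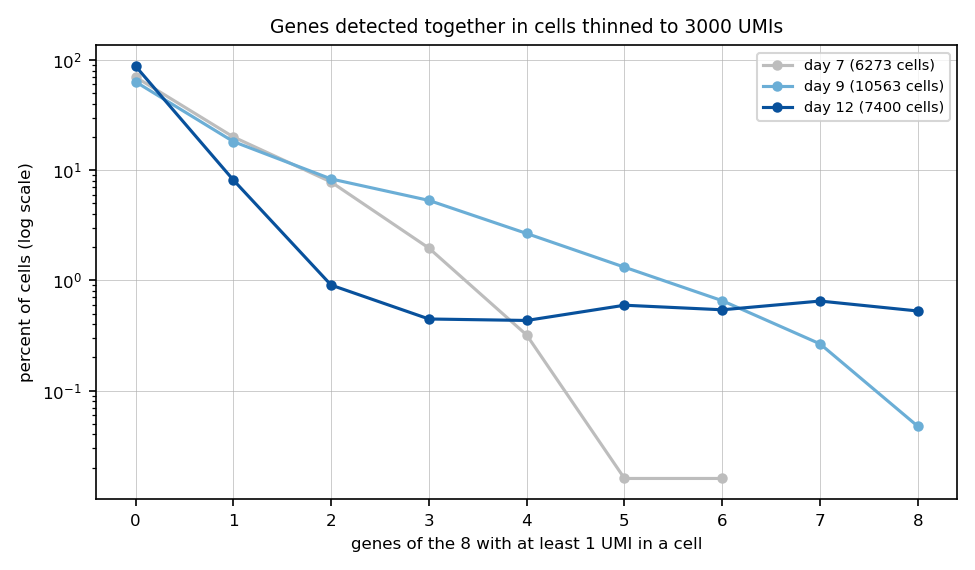
The plot of members per cell gives the percent of cells (y axis, log scale) by how many of the 8 members had at least 1 UMI (x axis), in cells thinned to 3000 UMIs, with 1 line per day. The day 7 and day 9 lines fall away toward 8 members, with 0 and 5 cells there, while the day 12 line levels off from 3 members on, with 39 cells at 8.

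Cells were clustered without the 8 members, and 18 of 19 clusters held at least 50 cells. Clusters 13 and 4 were named megakaryocyte-like from markers that exclude the members: 17 of 17 such markers were raised in cluster 13 (457 cells, none at day 7, 254 at day 9 and 203 at day 12) and 14 of 17 in cluster 4 (2551 cells, 1129, 1386 and 36). CCL5, LIPH, NRGN and PKHD1L1 led cluster 13, and CNTNAP5, COL24A1 and HBD led cluster 4. No marker of the megakaryocyte list stood among the 10 leading genes of either cluster. Erythroid markers were raised as well, 7 in cluster 13 and 3 in cluster 4, so the name does not set these cells apart from progenitors. Together they made up 17.2% of cells at day 7, 14.5% at day 9 and 3.15% at day 12, and held 70.8%, 76.3% and 90.9% of the member UMIs. Cluster 4 holds this class at day 7 and cluster 13 most of it at day 12, so values are given by cluster.

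In cluster 4 the members differed in how their levels stood by day. At day 7, 98.3% of its cells had an ITGA2B UMI and 7.00% a PPBP UMI. From day 7 to 9 to 12, PPBP went from 4.23 to 229 to 2360 CPM, PF4 from 107 to 601 to 1258, CLEC1B from 0.49 to 12.5 to 214 and TREML1 from 3.02 to 8.36 to 23.2. ITGA2B moved less, from 452 to 755 to 703 CPM, and GP1BA from 49.98 to 71.1 to 74.8. GP9 went from 25.2 to 134 to 485 CPM and GP1BB from 233 to 553 to 995. The day 12 values rest on 36 cells.

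In cluster 13, levels at days 9 and 12 are given as values. The share of all genes higher there at day 12 was not computed, so a general shift of the cluster cannot be told apart. PPBP went from 4701 (4628 to 4775) to 14646 (14498 to 14795) CPM and PF4 from 4812 to 8324. GP9 went from 442 to 1231 CPM, GP1BA from 227 to 431 and GP1BB from 2477 to 4405. TREML1 went from 47.8 to 227 CPM and CLEC1B from 223 to 896, while ITGA2B went from 1783 to 1621. The median depth was 12957.5 UMIs at day 9 and 10326 at day 12. A single day 12 cell held up to 1170 UMIs of PPBP, and the median was 91.

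**Figure D4:**
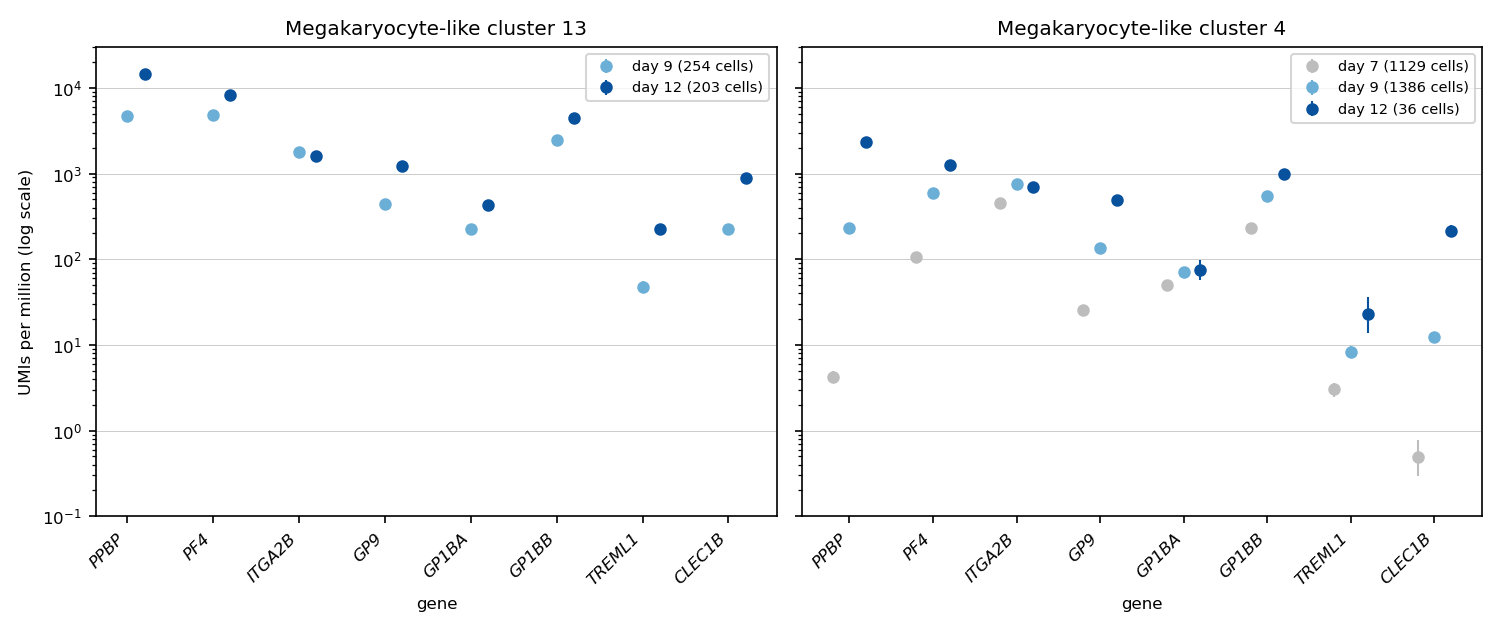
The plot of megakaryocyte-like clusters by day gives CPM on a log axis for each member, in cluster 13 (left) and cluster 4 (right), with 1 colour per day and 95% Poisson intervals as bars, which are mostly smaller than the points. PPBP, PF4, GP9, GP1BA, GP1BB, TREML1 and CLEC1B are higher on each later day shown in both clusters, and cluster 13 has no day 7 cells. The share of all genes that did so was not computed. ITGA2B stays within 452 to 755 CPM in cluster 4 and 1621 to 1783 CPM in cluster 13.

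Other genes of the platelet pathway were also raised in cluster 13. There, 22 of 28 platelet receptors and adaptors, 22 of 28 granule genes, 20 of 24 cytoskeletal and eicosanoid genes and 12 of 20 transcription factors reached 10 CPM and at least 2 times the level of all other cells, and 2 of 13 receptors and binding partners did. The same rule held for 3.86% of all 36601 genes, or 16.1% of the 8779 genes at 10 CPM or more in that cluster. ITGB3, the partner of ITGA2B, was at 709.7 CPM against 30.003 in other cells. GP6, the collagen receptor, was at 289 against 6.63 CPM, and GP5, the remaining subunit of the GPIb-IX complex, at 16.5 against 0.34. TUBB1, the platelet tubulin, was at 798 against 17.9 CPM, CCL5 at 382 against 2.66, NFE2 at 269 against 34.0 and GATA1 at 229 against 38.8. CD36 was lower there, at 3.88 against 70.1 CPM. PF4V1 was at 23.1 CPM and SEPTIN5 at 13.5 CPM. Over the 18 clusters, the genes whose level was most like the members' mean among 15171 were LCN2, GRAP2, SPDYC, CYP2F1, PDZK1IP1, SELP, PTH2, LINC00989, RAB27B and AP001189.1 (r = 0.949 to 0.972).

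Outside the megakaryocyte-like cells, members were found at low levels at day 12, and whether these come from RNA outside the cells was not tested. Stroma or mesenchyme-like cells, which should lack platelet genes, give the level to set beside the others (3529 cells, median 13267 UMIs): they held PPBP at 7.97 CPM, with a UMI in 7.96% of cells, and TREML1 at 0.17 CPM. TREML1 was at 3.57 CPM (3.13 to 4.06) in macrophage-like cells (2071 cells, median 30042 UMIs), with a UMI in 9.51% of cells against 0.227% in stroma. Thinned to 3000 UMIs the shares were 0.974% and 0.144%. Of all TREML1 UMIs at day 12, 68.9% lay in megakaryocyte-like and 26.8% in macrophage-like cells, where PPBP had 1.67% of its UMIs. The members did not stand in 1 ratio to PPBP across classes. TREML1 made up 24.9% (22.2 to 27.8) of TREML1 and PPBP UMIs in macrophage-like cells, 1.4996% (1.38 to 1.62) in megakaryocyte-like cells and 2.07% (0.953 to 3.90) in stroma.

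GP9, ITGA2B and GP1BB also differed between classes in their ratio to PPBP. GP9 was at 17.3 CPM in granulocyte-like cells (20.7% of 531 cells with a UMI, 3.65% thinned) and at 18.97 CPM in mast, basophil or eosinophil-like cells (27.4%, 6.45% thinned), against 1.05 CPM in stroma (1.25%, 0.231% thinned). GP9 made up 72.7% of GP9 and PPBP UMIs in granulocyte-like cells, 55.6% in mast, basophil or eosinophil-like cells, 8.23% in megakaryocyte-like cells and 11.6% in stroma. ITGA2B was at 80.1 CPM in mast, basophil or eosinophil-like cells (52.7% of 226 cells, 25.3% thinned) against 9.68 CPM in stroma (12.0%, 2.48% thinned). It made up 84.1% of ITGA2B and PPBP UMIs there, 10.7% in megakaryocyte-like cells and 54.8% (51.6 to 58.0) in stroma, so the stroma itself did not keep the megakaryocyte ratio. GP1BB made up 64.7% (57.0 to 71.9) of GP1BB and PPBP UMIs in granulocyte-like and 66.4% (60.3 to 72.1) in mast, basophil or eosinophil-like cells. It made up 59.1% (46.3 to 71.0) in erythroid-like cells, 59.7% (56.7 to 62.7) in stroma and 23.5% in megakaryocyte-like cells. The intervals of the first 3 classes overlap that of stroma. The chemokine PF4 was at 3.48 to 6.63 CPM in mast, granulocyte-like and macrophage-like cells against 5.80 CPM in stroma.

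**Figure D5:**
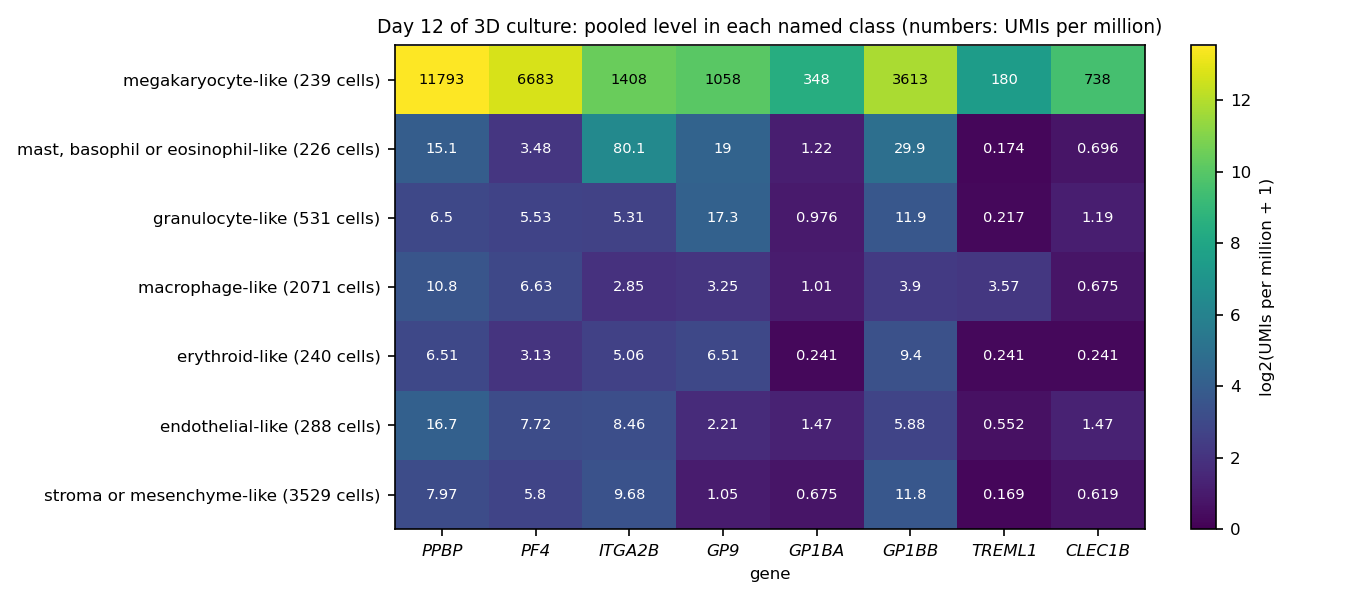
The heat map of cell classes at day 12 has named classes in rows and members in columns. The number in each cell of the map is the pooled level in CPM, and the colour is log2(CPM + 1). Every member is highest in megakaryocyte-like cells; beside them TREML1 stands at 3.57 CPM in macrophage-like, GP9 at 17.3 CPM in granulocyte-like and ITGA2B at 80.1 CPM in mast, basophil or eosinophil-like cells.

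The 3D day 12 single-cell and bulk libraries carry the same label but not the same member levels. PPBP was at 269 CPM over the single cells and at 3.03 ± 2.30 TPM in bulk (SD, n = 4), and PF4 at 153 CPM and 4.99 ± 6.53 TPM. CPM of UMIs and TPM are different scales, and no label says whether both assays used cells of 1 harvest. TREML1 was at 5.56 CPM and 6.22 TPM. Stroma or mesenchyme-like cells made up 46.5% of the day 12 single cells.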

How the data were processed

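Bulk RNA was extracted with TRIzol and made into SMART-seq2 libraries, per the labels. The authors deposited the bulk levels as TPM, a length-scaled unit, in 1 table of 32 libraries, with build hg38 named in the submitters' processing notes. Those notes also list DESeq2, HTSeq 0.11.1, HISAT2 and Trim Galore 0.4.4, and the tool that made the TPM, like the read totals, was not given in the sources used here. Each single-cell matrix holds UMI counts from the authors' Cell Ranger run (version 7.1.0 at days 7 and 9, version 7.0.0 at day 12, per the file headers). Sample titles identified every TPM column.

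Values were transformed to log2(TPM + 1) and tested with limma 3.58.1 (R 4.3.3) on genes averaging at least 1 TPM over the libraries fitted, and p-values were adjusted by Benjamini-Hochberg, called under 0.05. Of 12 housekeeping genes, 0 values were 0, and no 2 libraries of a group were identical. Fits were tested on simulated data. Cells needed 1000 UMIs and 500 genes, with mitochondrial counts of up to 15%. Scrublet (expected rate 0.06) marked 216, 435 and 369 doublets, which were left out. Leiden clusters (resolution 0.5) used 2000 variable genes without the members, 30 components and 15 neighbours, in scanpy 1.11.5 with leidenalg 0.10.2 and Python 3.11.15. A cluster was named where at least 5 markers reached 20 CPM and 2 times the level in other cells, so the names are rebuilt and not the authors'. Poisson and binomial intervals are exact, at 95%, and the floor is 3 counts.

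The members and lists were chosen with earlier results of these data known. Named list genes are up to 6 per list, those with the highest mean TPM in 2D. ITGB3, GATA1, SELP, GP5, GP6, TUBB1, CCL5, PF4V1 and SEPTIN5, and CD36 and NFE2 in single cells, were named after their values were seen. Alternatives were another pseudocount, no filter, median-ratio scaling, a replicate block and leaving out libraries, with other cell filters and thinning for single cells. Loci and promoters are RefSeq's on GRCh38.p14.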

Additional observations from a re-analysis of the deposited data

Results flagged for a closer look

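In 2 of 15 sets of 4 libraries tested, 1 library lay far from the other 3 by Dixon's test; chance alone marks about 1 in 20 such sets. In 3D day 12, 1 library had GP1BB at 1.48 TPM, with the gap to the next library being 0.926 of the whole range, and 1 library had CLEC1B at 1.29 TPM, with a gap of 0.961 of the range. Both are still below every 2D library.

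The change of ITGA2B with FBS differed between days 16, 19 and 23 (limma F test, adjusted p = 0.0281), and the values by library are given in the report. It moved to an adjusted p of 0.0892 at a pseudocount of 0.1, 0.0662 with no filter, 0.0212 with median-ratio scaling and 0.0323 with a replicate block. Without 1 library at a time it ranged from 0.0151 to 0.0859. These alternatives were chosen after seeing the data.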

How the results depend on the processing

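Against 2D, 751 of 768 member changes recomputed under alternatives kept direction and side of the threshold. Members called by leaving out 1 library at a time numbered 7 to 8 for 3D day 12 and 5 to 6 for day 19 with FBS. For E. coli no count is given, as leaving out 1 of its libraries leaves the other alone. Against 3D day 12, members called numbered 1 at each of days 16, 19 and 23 with no filter. By leaving out 1 library they numbered 0 to 1, 0 to 2 and 1 to 2 at these days. For FBS on average they numbered 0 with median-ratio scaling and 0 to 2 when 1 library was left out. TREML1 in 3D day 12 lost its call at an adjusted p of 0.0709 with scaling. ITGA2B in day 19 with FBS lost its call against 2D at a pseudocount of 0.1 (adjusted p = 0.166) and without replicate 1 of that group (adjusted p = 0.0538), and CLEC1B in day 23 with FBS at a pseudocount of 0.1 (adjusted p = 0.0824). The cause was not tested.

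Direction reversed, in results that had not passed the threshold, as follows (log2 scale). ITGA2B at day 16 against 3D day 12 was at -0.833 with a pseudocount of 0.1 and -0.0388 with scaling, and leaving out 1 library gave -0.675 to 0.453. TREML1 at day 16 against 3D day 12 was at -0.267 with scaling and -0.27 to 0.314 without 1 library, and at day 19 it was at -0.0388 with scaling. TREML1 against 2D ranged from -0.325 to 0.0402 for day 23 with FBS and from -0.314 to 0.0511 for SP6A without 1 library. For E. coli it was at 1.13 without replicate 2, which leaves replicate 1 alone (26.7 TPM). Direction did not reverse without replicate 1, where TREML1 was at -3.67 with replicate 2 alone (0 TPM). Nor did it at a pseudocount of 0.1, where TREML1 was at -2.85 and passed the threshold (limma adjusted p = 0.0425).

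The number of genes called over all genes moved without the E. coli libraries to 3435 at day 16 and 2567 at day 19 against 3D day 12, and for SP6A against 2D to 8949 with no filter and 3672 without its replicate 2.

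Replicate numbers were not used to pair samples in the main fits. Same-numbered libraries deviated together in 0 pairs above a correlation of 0.1 (range -0.122 to 0.0391). With so few libraries per group, this cannot settle whether they were paired, and the labels do not say. With the replicate block, TREML1 in 3D day 12 (adjusted p = 0.0529), PPBP at day 19 against 3D day 12 (0.0527) and GP9 for FBS (0.0658) lost their calls, and the members called for FBS numbered 0.

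The share of cells with at least 4 members was 0.351%, 4.94% and 2.74% at days 7, 9 and 12 after thinning, and 16.8% at day 9 with all barcodes kept. Low TPM, with no read totals, limit GP1BA, GP1BB and CLEC1B in 3D, and 1 library per day limits the single-cell values.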

Other observations

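Clusters that took no name also held member UMIs. Cluster 7 (1132 cells, 1127 of them at day 9, median 22076.5 UMIs) had no list of markers raised, yet its members stood near the average of the day 9 library: PPBP at 148 against 156 CPM, ITGA2B at 176 against 184 CPM, GP1BB at 158 against 160 CPM and GP9 at 29.4 against 33.5 CPM. A PPBP UMI was found in 83.4% of its cells. Cluster 10 (562 cells, median 3997.5 UMIs) had 6 megakaryocyte markers raised, and its 53 cells of day 12 held PPBP at 6450 CPM, PF4 at 3167 CPM and CLEC1B at 313 CPM, with a PPBP UMI in 41.5% of them.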
